A study of Rattus norvegicus with 9 samples.

Results

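miR-99a-5p, miR-99b-5p, miR-100-5p, miR-125a-5p and miR-125b-5p are the partners of let-7 in 3 clusters of miRNA genes. They were taken by name (rno-miR-99a-5p, rno-miR-99b-5p, rno-miR-100-5p, rno-miR-125a-5p and rno-miR-125b-5p) from a table of 765 mature miRNAs measured by small RNA sequencing in rat corneas, where 5 of 5 names were found, and the same 5 were among the 281 miRNAs abundant enough to test. The series holds 3 libraries each of normal cornea, of isograft cornea and of allograft cornea. All 9 libraries carry the labels Wistar (a rat strain) and 6 weeks of age. By the words alone, donor and recipient match genetically in an isograft and differ in an allograft. Donor strain, time after grafting and the number of animals behind a library are not given in the labels. Each library is called by its group and its title number (12, 34 or 56). The labels do not state that the 3 libraries of a group are from different animals. The p-values below therefore measure only a spread between samples that may be technical.

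A miRNA is cut from a hairpin whose 5p and 3p arms can each give a mature strand, and it finds its target messages mostly through bases 2 to 8 from its 5′ end, the seed. The miR-99/100 family is an old animal miRNA family known for restraining mTOR and insulin-like growth factor receptor signalling. The miR-125 family holds the vertebrate relatives of lin-4, which times larval development in worms together with let-7, and is known for roles in blood cell development and in skin. miRNA genes of the miR-99/100, let-7 and miR-125 families lie side by side in many animals, and neighbours in such a cluster can be made from 1 long primary transcript.

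The sequences below show what the members share and what tells the clusters apart (RefSeq, GRCr8). Capitals mark the seed in the mature strands.

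miR-99b-5p: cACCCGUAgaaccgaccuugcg

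miR-100-5p: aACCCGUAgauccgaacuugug

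miR-125a-5p: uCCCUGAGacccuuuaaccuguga

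miR-125b-5p: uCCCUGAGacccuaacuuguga

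let-7e-5p: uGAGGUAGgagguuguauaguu

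miR-125b-1-3p: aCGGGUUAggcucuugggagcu

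miR-125b-2-3p: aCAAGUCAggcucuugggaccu

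miR-99b-5p and miR-100-5p have the same seed, and miR-125a-5p and miR-125b-5p share another. miR-99b-5p differs from miR-100-5p by 4 edited bases, and miR-125a-5p from miR-125b-5p by 3. How a read matching more than 1 miRNA was counted is not given in the sources used here, so the split of reads between such close relatives is uncertain. miR-99a-5p is named only, since no mature sequence was found for it. Its distance to miR-100-5p was therefore not measured and may be smaller than those given. The split of reads between miR-99a-5p and miR-100-5p is uncertain too. RefSeq places Mir99b, Mirlet7e and Mir125a in this order on chromosome 1 within the span of Spaca6, a protein-coding gene of sperm. Mir100, Mirlet7a-2 and Mir125b1 follow one another on chromosome 8 within the spans of Mir100hgl and Lnc215, and Mir99a, Mirlet7c1 and Mir125b2 on chromosome 11 within a long non-coding RNA gene. Whether the hairpins are exonic or intronic was not read. The strand miR-125b-5p is in both the Mir125b1 and the Mir125b2 hairpin, so its reads cannot be given to one locus, while each of the 3p strands shown comes from 1 of them.

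The hairpins of the cluster mates compared most closely below are shown with their 5p and 3p strands in capitals. Mir99b lies at chr1:67350064-67350133 and Mir125a at chr1:67350675-67350759, both on the plus strand of GRCr8.

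Mir99b: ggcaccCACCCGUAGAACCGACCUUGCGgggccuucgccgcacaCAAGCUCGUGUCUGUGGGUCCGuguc

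Mir125a: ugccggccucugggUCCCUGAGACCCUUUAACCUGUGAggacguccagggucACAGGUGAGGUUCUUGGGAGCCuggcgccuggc

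Values are RPM, each miRNA's reads scaled to 1000000 reads of the library. That total, recovered from the RPM steps, was 12153889 in isograft 12 and 11001459 to 11013517 in each other library. The members' reads, recovered in the same way, were 3610 to 149063 per library. The listed miRNAs took 26.4% to 65.6% of a library's reads, so an RPM value also moves with the reads outside the list. Each of the 8 fixed markers of corneal and squamous epithelium was present in each library, and their sum was 271148 to 420587 RPM in normal corneas, 159213 to 193990 in the isografts and 37254 to 90969 in the allografts. The 6 stroma and fibroblast markers summed to 9645 to 11728 RPM in normal corneas, 17011 to 36336 in the isografts and 11076 to 21762 in the allografts. The 5 leukocyte markers summed to 46.0 to 56.7, 156 to 327 and 2293 to 3997 RPM in the same order, and the 2 endothelial markers to 346 to 857, 2095 to 6150 and 2955 to 4874 RPM. The 4 muscle markers summed to at most 12.4 RPM, with miR-133b-3p at 0 in some grafts. The 4 red blood cell markers summed to 82.4 to 343 RPM in normal corneas and 14.0 to 181 in the isografts, with miR-144-3p or miR-144-5p at 0 in some libraries. Allograft 34 stood apart, with 1068 RPM of them against 19.7 and 18.5 in the other allografts, and it had the lowest epithelial sum and the lowest listed share of the 9 libraries. Among the isografts, isograft 12 stood apart, with the lowest stromal, leukocyte and endothelial sums. These were 17011 RPM against 36336 and 34460, 156 against 317 and 327, and 2095 against 6150 and 5684. Its red blood cell sum was 181 RPM against 14.0 and 29.1. Among the results rerun without allograft 34, those that change are given below with and without it, and several are also given without isograft 12. In whole tissue, fewer cells of a type and less RNA per cell cannot be told apart, and the part of cell makeup in the results below was not tested.

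In normal corneas the members formed 1 fixed order. miR-99a-5p was highest, at 10241, 13542 and 12077 RPM in the libraries 12, 34 and 56, and ranked 10 among all listed miRNAs by group mean. miR-125b-5p followed at 3972, 4637 and 4995 RPM, and miR-100-5p at 1941, 2137 and 2191 RPM. miR-125a-5p stood at 1185, 1317 and 1570 RPM and miR-99b-5p at 838, 1096 and 986 RPM. No member's range touched that of its neighbour in this order, and the order was the same in each normal library.

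In isografts miR-99a-5p was still highest, at 5534, 10382 and 9402 RPM, with isograft 12 far below the other 2. miR-125b-5p at 2195, 5629 and 4185 RPM and miR-100-5p at 3192, 4193 and 3767 RPM overlapped and did not differ beyond their spread. miR-99b-5p at 1836, 2222 and 1923 RPM stood above miR-125a-5p at 877, 1959 and 1209 RPM within each isograft library, the reverse of the normal order, although the ranges overlapped. In allografts miR-99a-5p was at 4316, 3573 and 5962 RPM, miR-125b-5p at 1534, 1309 and 2933 RPM, and miR-100-5p at 1935, 1230 and 2089 RPM. miR-99b-5p at 1081, 758 and 1271 RPM lay wholly above miR-125a-5p at 393, 328 and 665 RPM, while miR-100-5p overlapped with both miR-125b-5p and miR-99b-5p. Allograft 56 was the highest allograft library for each member.

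**Figure D1:**
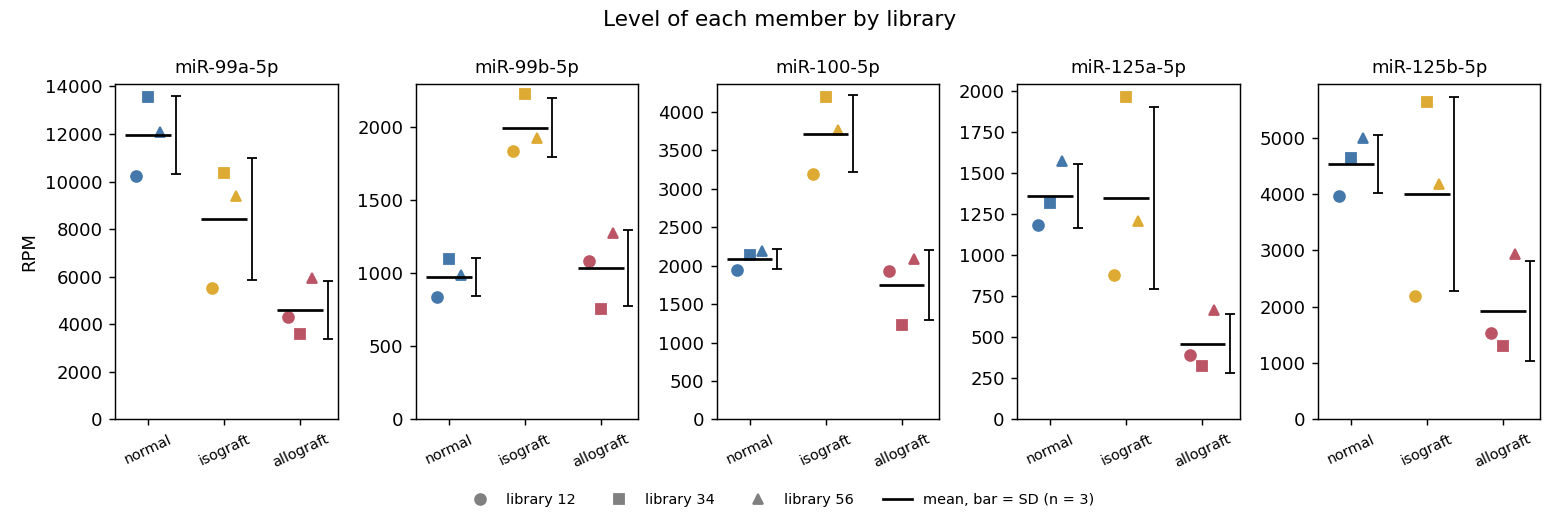
RPM of the 5 members (one panel each, linear axes from 0 that differ between panels) in 9 libraries, with the group mean and SD (n = 3). By group mean, miR-99b-5p and miR-100-5p are highest in isografts, and each member except miR-99b-5p is lowest in allografts. Allografts overlap with isografts for miR-99a-5p and miR-125b-5p, and with normal corneas for miR-100-5p. Isograft 12 is the lowest isograft for each member.

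The cluster mates miR-99b-5p and miR-125a-5p, which leave the same stretch of chromosome 1, moved apart in the grafts. Inside each library the ratio of their RPM values was 0.707, 0.832 and 0.628 in normal corneas, 2.09, 1.13 and 1.59 in isografts and 2.75, 2.31 and 1.91 in allografts. The ratio was below 1 in each normal library and above 1 in each graft library, and it does not depend on how the libraries are scaled. On the log2 scale, after adding 1 RPM to both, it was -0.48 ± 0.20, 0.64 ± 0.44 and 1.20 ± 0.26 (SD, n = 3 each), a difference of 1.12 between isografts and normal corneas and of 1.68 between allografts and normal corneas. An exact permutation test over the 3 groups gave p = 0.00714, and adjusted p = 0.0179 over the 10 ratios planned. Both graft groups lay wholly above the normal corneas, where 3 against 3 libraries cannot give an exact p below 0.1, while isografts and allografts overlapped (exact permutation p = 0.2, two-sided).

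let-7e-5p, encoded between them, gave intermediate values. On the log2 scale miR-99b-5p over let-7e-5p was 1.25 ± 0.04 in normal corneas, 1.82 ± 0.20 in the isografts and 2.05 ± 0.15 in the allografts (exact permutation p = 0.00714, adjusted p = 0.0179, n = 3 each). That of miR-125a-5p to let-7e-5p fell over the same groups from 1.73 ± 0.23 to 1.18 ± 0.25 and 0.85 ± 0.11 (exact permutation p = 0.00714, adjusted p = 0.0179, n = 3 each). In both ratios the normal libraries did not overlap with either graft group, and the graft groups overlapped with each other. let-7e-5p differs from let-7a-5p, which was more abundant in each library, by 1 base, so its level is the least certain of the 3.

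**Figure D2:**
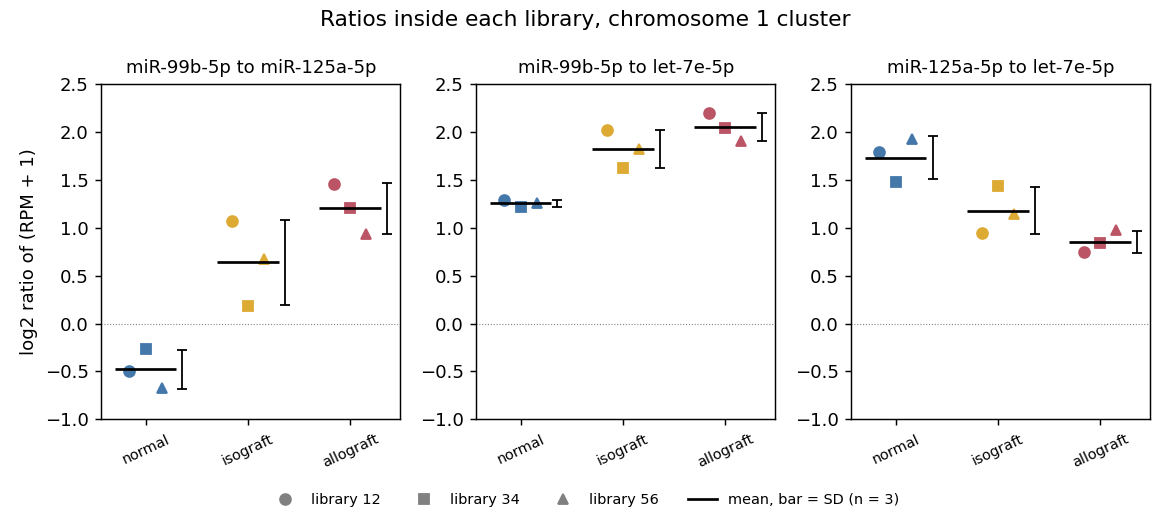
log2 ratio of (RPM + 1) for the 3 pairs within the chromosome 1 cluster, by library, with mean and SD (n = 3). The ratio of miR-99b-5p to miR-125a-5p lies below 0 in the 3 normal libraries and above 0 in the 6 graft libraries.

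The 3p strands of these hairpins were compared after the 5p values had been seen. miR-99b-3p was at 22.7, 34.8 and 27.8 RPM in normal corneas, 48.0, 58.3 and 49.2 in isografts and 28.2, 22.4 and 35.7 in allografts, so that isografts lay wholly above both other groups, as they did for miR-99b-5p. The log2 ratio of miR-99b-5p to miR-99b-3p ranged from 4.94 to 5.26 over the 9 libraries (exact permutation p = 0.104), though p was 0.0214 with 5 RPM added in place of 1 and 0.0278 with the replicate block. miR-125a-3p was rare, at 17 to 56 reads per library, and too low to test in the model. It stood at 2.63, 3.45 and 3.27 RPM in normal corneas, 3.21, 5.09 and 4.18 in isografts and 2.64, 1.54 and 3.00 in allografts, with allografts overlapping normal corneas. For miR-125a-5p over miR-125a-3p the log2 ratio was 8.36 ± 0.16 in normal corneas, against 7.97 ± 0.32 in the isografts and 7.05 ± 0.31 in the allografts (exact permutation p = 0.00714, adjusted p = 0.0107 over 6 ratios added after seeing the data, n = 3 each). Allografts lay wholly below both other groups in it. That p was 0.0556 with the title number as a replicate block. Between the 3p strands of the cluster mates, the log2 ratio of miR-99b-3p to miR-125a-3p was 2.82 ± 0.16 in normal corneas, 3.37 ± 0.15 in the isografts and 3.13 ± 0.11 in the allografts (exact permutation p = 0.00714, adjusted p = 0.0107 over 6 ratios, n = 3 each). With 1 RPM added, isografts lay wholly above both other groups. Allografts then overlapped with normal corneas, 0.31 above them on average where the 5p strands differed by 1.68. These overlaps depended on the pseudocount. In plain RPM the ratio was 8.62, 10.1 and 8.50 in normal corneas, 14.9, 11.4 and 11.8 in isografts and 10.7, 14.5 and 11.9 in allografts. There allografts lay wholly above normal corneas, by 0.44 on the log2 scale, and overlapped with isografts. The exact permutation p of this ratio was 0.05 without a pseudocount and 0.0762 without isograft 12 and allograft 34.

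Each member was then read from a model fitted to all 281 miRNAs (limma, log2(RPM + 1), p adjusted over the 281 by Benjamini-Hochberg). In isografts against normal corneas 1 of 5 members rose and 0 fell, where 21.4% of all miRNAs passed in either direction, 16.7% as rises and 4.63% as falls. Groups did not overlap for 2 of 5 members and for 33.5% of all miRNAs. miR-99b-5p rose 2.05-fold in mean RPM, with a log2 fold change of 1.04 (SE 0.33, limma adjusted p = 0.0255), and its groups did not overlap. That call was lost when any normal library, isograft 34 or isograft 56 was left out (limma adjusted p = 0.0638 to 0.125) and with RPM computed without miR-184, an abundant epithelial miRNA (log2 fold change 0.75, adjusted p = 0.183). miR-100-5p had no overlap between groups and a log2 fold change of 0.82 (SE 0.33, limma adjusted p = 0.0802), and it passed under 9 of 23 alternatives, among them without isograft 12 (0.0261), allograft 34 (0.0401) or allograft 56 (0.0399). miR-99a-5p stood at -0.54 (95% interval -1.22 to 0.14) and passed under 3 of the 23, scaling by median of ratios, edgeR and DESeq2. miR-125a-5p at -0.08 (95% interval -0.83 to 0.68) and miR-125b-5p at -0.28 (95% interval -1.04 to 0.48) overlapped widely, and both turned positive without isograft 12 (0.19 and 0.10) and with scaling to the summed listed miRNAs (0.23 and 0.03). In the same comparison 4 of 8 epithelial markers fell, and 4 of 6 stromal, 2 of 2 endothelial and 5 of 5 leukocyte markers rose. Their part in the members' values was not tested.

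In allografts against normal corneas 3 of 5 members fell and 0 rose, where 47.3% of all miRNAs passed, 23.1% as rises and 24.2% as falls. Groups did not overlap for 3 of 5 members and for 60.1% of all miRNAs. miR-125a-5p fell by 1.61 on the log2 scale (SE 0.37, limma adjusted p = 0.00069), to 0.340 of its normal mean RPM. miR-99a-5p fell by 1.40 (SE 0.33, limma adjusted p = 0.0010) and miR-125b-5p by 1.32 (SE 0.37, limma adjusted p = 0.0041). In each of these 3 the allograft libraries lay wholly below the normal ones, and each passed in 23 of 23 alternatives. With libraries scaled to the summed list the falls were smaller, by 0.89 for miR-125a-5p, 0.68 for miR-99a-5p and 0.60 for miR-125b-5p on the log2 scale, and all miRNAs split into 141 rises and 44 falls in place of 65 and 68. miR-99b-5p at 0.07 (95% interval -0.62 to 0.75) and miR-100-5p at -0.29 (95% interval -0.96 to 0.38) overlapped between the groups. Their direction depended on the scaling. With libraries scaled to the sum of the listed miRNAs, miR-99b-5p was higher by 0.79 (adjusted p = 0.00055) and miR-100-5p by 0.43 (adjusted p = 0.0249), while the median of all miRNAs moved from -0.14 to 0.55. With RPM computed without miR-184, miR-99b-5p stood at -0.37 and that median at -0.56. Rescaling moves all miRNAs of a library together, so the distance to the median of all miRNAs hardly changes by construction: it was 0.20 to 0.23 for miR-99b-5p, -0.16 to -0.12 for miR-100-5p and -1.48 to -1.45 for miR-125a-5p. In the same comparison 7 of 8 epithelial markers fell, and 3 of 6 stromal, 2 of 2 endothelial and 5 of 5 leukocyte markers rose. Their part in the members' changes was not tested.

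In allografts against isografts 5 of 5 members fell, where 34.5% of all miRNAs passed, 13.5% as rises and 21% as falls, and the median of all miRNAs was -0.29. Groups did not overlap for 3 of 5 members and for 38.8% of all miRNAs. miR-125a-5p fell by 1.53 on the log2 scale (SE 0.37, limma adjusted p = 0.0023) and passed in 23 of 23 alternatives. miR-100-5p fell by 1.11 (SE 0.33, limma adjusted p = 0.0113) and passed in 22 of 23, all but the one without allograft 34 (0.0530). miR-125b-5p fell by 1.04 (SE 0.37, limma adjusted p = 0.0295), miR-99b-5p by 0.97 (SE 0.33, limma adjusted p = 0.0251) and miR-99a-5p by 0.85 (SE 0.33, limma adjusted p = 0.0470). The allograft libraries lay wholly below the isograft ones for miR-99b-5p, miR-100-5p and miR-125a-5p, and overlapped for miR-99a-5p and miR-125b-5p. The count of 5 came down to 1, miR-125a-5p, without allograft 34, and to 2 without isograft 34, isograft 56 or allograft 12. It was 3 without normal 56 and again 5 without both isograft 12 and allograft 34. In this comparison 5 of 5 leukocyte markers rose, and 3 of 8 epithelial and 3 of 6 stromal markers fell; their part in the members' falls was not tested. With libraries scaled to the summed list the members that fell were again 5, while all miRNAs split into 85 rises and 55 falls in place of 38 and 59, and their median was 0.10. The comparisons share libraries, so they are given side by side and not as support for one another.

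**Figure D3:**
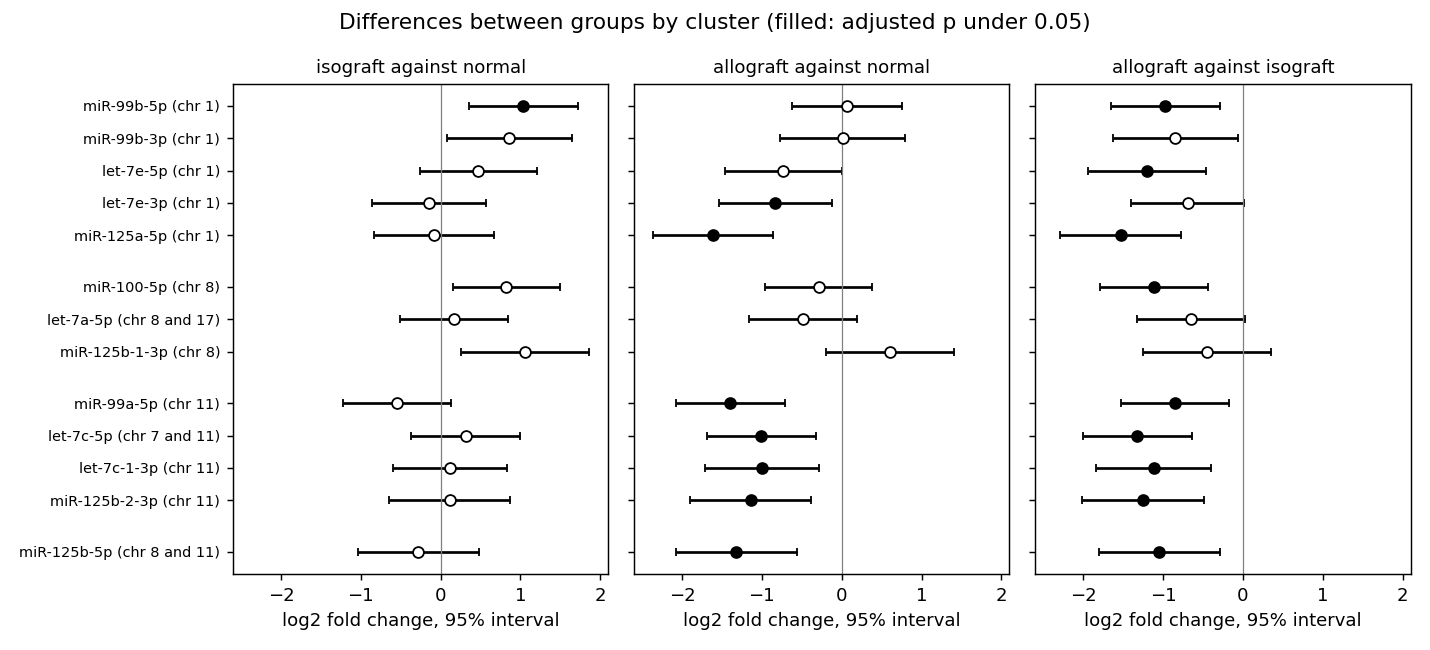
log2 fold change on log2(RPM + 1) with 95% intervals from limma for members, their tested 3p strands and their let-7 partners, grouped by the chromosomes of their hairpins; filled points have an adjusted p under 0.05. In allografts against normal corneas miR-99b-5p at 0.07 and miR-125a-5p at -1.61 part within 1 cluster, and miR-125b-1-3p at 0.60 and miR-125b-2-3p at -1.14 part between clusters.

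The 2 hairpins of miR-125b could be told apart by their 3p strands, which were compared after their values had been seen. Whether the level of a 3p strand follows the output of its locus was not tested. For miR-125a the log2 ratio of the 5p to the 3p strand was lower in allografts than in normal corneas by 1.31. miR-125b-1-3p, from the chromosome 8 cluster of miR-100, was at 22.1, 32.9 and 35.2 RPM in normal corneas, 43.7, 82.5 and 66.6 in isografts and 46.6, 36.7 and 54.0 in allografts. Both graft groups lay wholly above the normal corneas. Neither difference passed in the model (limma log2 fold change 1.05, SE 0.39, adjusted p = 0.0553 for isografts, and 0.60, SE 0.39, adjusted p = 0.220 for allografts). The first passed under 10 of 23 alternatives, among them without isograft 12 (1.30, limma adjusted p = 0.0027) or allograft 56 (0.0399), and the second under 4. miR-125b-2-3p, from the chromosome 11 cluster of miR-99a, was at 166, 213 and 192 RPM in normal corneas, 184, 218 and 214 in isografts and 86.9, 59.1 and 122 in allografts. It fell in allografts by 1.14 on the log2 scale against normal corneas (SE 0.37, limma adjusted p = 0.0125) and by 1.25 against isografts (SE 0.37, limma adjusted p = 0.0114). The first call was lost without normal 34 (adjusted p = 0.0625) or allograft 34 (0.0671), and the second without allograft 34 (0.0608).

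Inside each library the ratio of miR-125b-1-3p to miR-125b-2-3p was lowest in normal corneas and highest in allografts, with no overlap between any groups. In RPM it was 0.133, 0.154 and 0.183 in normal corneas, 0.237, 0.378 and 0.312 in isografts and 0.537, 0.622 and 0.443 in allografts. The log2 means were -2.64 ± 0.22, -1.70 ± 0.33 and -0.90 ± 0.24 (exact permutation p = 0.00357, the smallest that 9 libraries in 3 groups can give, and adjusted p = 0.0107 over 6 ratios, n = 3 each). The alternatives of every ratio were judged by the unadjusted exact permutation p under 0.05, and by that this ratio passed in 14 of 14. miR-125b-5p, the strand the loci share, fell in allografts, and of the 3p strands miR-125b-2-3p was the more abundant in each library. For miR-99a-5p over miR-125b-5p the log2 ratio was 1.40 ± 0.14 in normal corneas, 1.13 ± 0.23 in the isografts and 1.32 ± 0.26 in the allografts, with overlap between each pair of groups (exact permutation p = 0.361, n = 3 each).

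**Figure D4:**
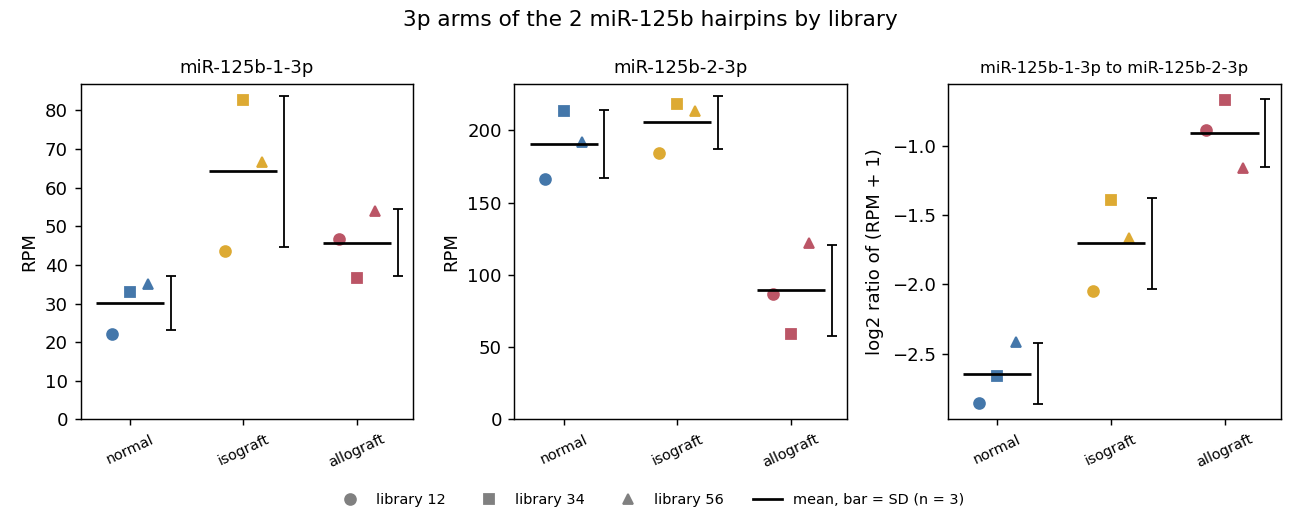
RPM of the 3p strands of the 2 miR-125b hairpins, on axes from 0, and the log2 ratio of (RPM + 1) between them, by library with mean and SD (n = 3). The ratio is lowest in the 3 normal libraries and highest in the 3 allograft libraries.

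miR-100-5p gained on miR-99a-5p and miR-125b-5p in the grafts. On the log2 scale miR-99a-5p over miR-100-5p was 2.51 ± 0.14 in normal corneas, 1.14 ± 0.30 in the isografts and 1.40 ± 0.21 in the allografts (exact permutation p = 0.0107, adjusted p = 0.0179, n = 3 each). By unadjusted p it passed in 14 of 14 alternatives. That of miR-100-5p to miR-125b-5p was -1.11 ± 0.08, -0.01 ± 0.50 and -0.08 ± 0.41 in the same order (exact permutation p = 0.0286, adjusted p = 0.0317, n = 3 each), and p was 0.0607 to 0.0893 without any 1 normal library, isograft 56 or allograft 34 and with the replicate block. Against let-7a-5p, which chromosome 17 also encodes, it was -1.01 ± 0.07, -0.36 ± 0.18 and -0.82 ± 0.25 (exact permutation p = 0.0214, adjusted p = 0.0306, n = 3 each), where isografts lay above normal corneas and allografts overlapped with both. That p was 0.0556 to 0.0857 without normal 34, isograft 12, isograft 56 or both isograft 12 and allograft 34, and with the replicate block. let-7a-5p differs from let-7c-5p by 1 base, so its level is uncertain too. Against miR-125b-1-3p of its own cluster miR-100-5p was lower in allografts, at 5.21 ± 0.16 on the log2 scale against 6.10 ± 0.26 in normal corneas and 5.87 ± 0.26 in isografts (exact permutation p = 0.0143, adjusted p = 0.0171 over 6 ratios, n = 3 each).

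In the chromosome 11 cluster miR-99a-5p lost ground to let-7c-5p. Their log2 ratio was 0.59 ± 0.07 in normal corneas, -0.27 ± 0.31 in the isografts and 0.20 ± 0.20 in the allografts, with no overlap between any groups (exact permutation p = 0.00357, adjusted p = 0.0179, n = 3 each). let-7c-5p, which a hairpin on chromosome 7 also encodes, was at 6929, 8544 and 8344 RPM in normal corneas, at 8530, 11588 and 9611 RPM in isografts and at 3675, 2754 and 6014 RPM in allografts. It differs from let-7a-5p by 1 base, so the split of reads between them is uncertain. Against miR-125b-2-3p, which only this cluster encodes, miR-99a-5p was at 5.96 ± 0.02 on the log2 scale in normal corneas, 5.31 ± 0.35 in the isografts and 5.71 ± 0.16 in the allografts, again with no overlap (exact permutation p = 0.00357, adjusted p = 0.0107 over 6 ratios, n = 3 each). let-7c-1-3p, the 3p strand of the same cluster's let-7 hairpin, was low, with means of 8.14 RPM ± 1.81, 8.98 ± 2.26 and 3.54 ± 0.60 (SD, n = 3 each). It fell in allografts by 1.00 against normal corneas (SE 0.35, limma adjusted p = 0.0202) and by 1.12 against isografts (SE 0.35, limma adjusted p = 0.0150). The calls were lost in 5 and 3 of 22 alternatives, both without allograft 34 (0.0667 and 0.0608). In the chromosome 1 cluster let-7e-3p, at 1.64 to 6.81 RPM, fell in allografts against normal corneas by 0.83 (SE 0.35, limma adjusted p = 0.0492), close to the threshold. let-7e-3p was not rerun under the alternatives. No allograft reached 5 RPM of let-7e-3p or let-7c-1-3p, so both passed the filter only through normal and isograft libraries. That favours a fall in allografts, and these calls are no support for one.

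Within the miR-99/100 family, as the deposited values split the reads between its members, the share of miR-99a-5p was lower in grafts. It made 79.5% ± 1.08 of the family's RPM in normal corneas, 58.8% ± 5.58 in the isografts and 62.4% ± 3.03 in the allografts, with both graft groups wholly below. miR-99b-5p went from 6.48% ± 0.05 to 14.5% ± 2.55 and 14.0% ± 0.64, and miR-100-5p from 14.0% ± 1.13 to 26.7% ± 3.04 and 23.6% ± 2.38 (SD, n = 3 each). The log2 ratio of miR-99b-5p to miR-99a-5p was -3.62 ± 0.01, -2.03 ± 0.39 and -2.15 ± 0.14 in the same order (exact permutation p = 0.0286, adjusted p = 0.0317, n = 3 each). That p was 0.0833 with the replicate block. The summed family was 13020 to 16775 RPM in normal corneas, 10563 to 16796 in the isografts and 5562 to 9322 in the allografts. In the miR-125 family, miR-125a-5p made 23.0% ± 0.90, 25.6% ± 3.08 and 19.6% ± 1.02, where allografts lay wholly below both other groups. Its log2 ratio to miR-125b-5p was -1.74 ± 0.07, -1.55 ± 0.24 and -2.03 ± 0.10 (exact permutation p = 0.0107, adjusted p = 0.0179, n = 3 each), where p was 0.0556 to 0.0857 without normal 12, allograft 56 or both isograft 12 and allograft 34, and with the replicate block. The summed miR-125 family was 5158 to 6565 RPM in normal corneas, 3072 to 7588 in the isografts and 1637 to 3597 in the allografts.

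**Figure D5:**
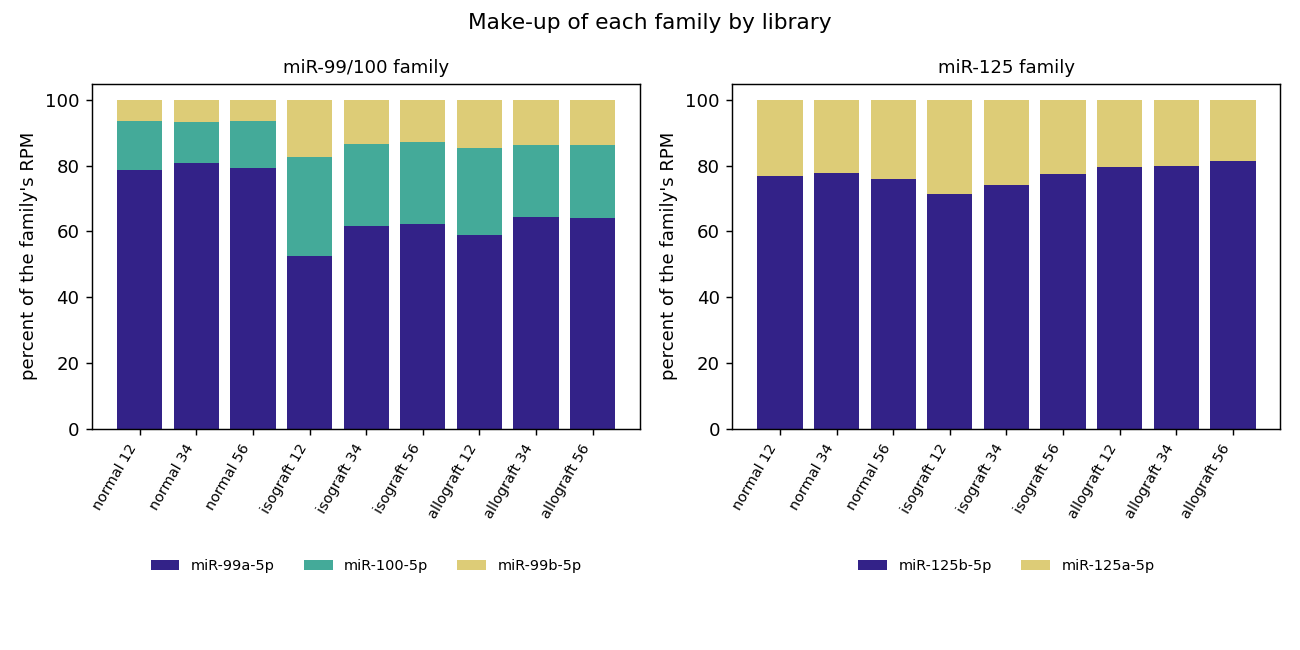
Share of each member in the summed RPM of its family, in percent, for the 9 libraries. The share of miR-99a-5p is 78.7% to 80.7% in normal corneas and 52.4% to 64.3% in the 6 graft libraries.

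Among all 281 miRNAs, the closest in pattern to each member were found by Pearson's r of log2(RPM + 1) over the 9 libraries. This r is a description, since the libraries share their groups and their scaling. miR-99a-5p was most like miR-200c-3p (r = 0.993), of a family that maintains epithelium, and the 2 arms of miR-204 (0.986 and 0.981). miR-99b-5p was closest to its own 3p strand (0.986), then to miR-100-5p (0.948) and miR-672-5p (0.936). miR-100-5p was closest to miR-23b-3p (0.962), miR-99b-5p and miR-708-3p (0.942). miR-125a-5p was closest to miR-320-3p (0.977), miR-211-5p (0.967) and let-7c-1-3p (0.966), and miR-125b-5p to miR-1843b-5p (0.987), miR-185-5p (0.979) and miR-1843a-5p (0.974). Between the cluster mates miR-99b-5p and miR-125a-5p r was 0.475, and between miR-99a-5p and miR-125a-5p, from different chromosomes, it was 0.927.

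Of 9 let-7 miRNAs 0 passed in isografts against normal corneas, where 21.4% of all miRNAs did, with a median log2 fold change of 0.29 where that of all miRNAs was 0.05. In allografts against normal corneas 2 fell, let-7b-5p by 0.94 (SE 0.35, limma adjusted p = 0.0265) and let-7c-5p by 1.01 (SE 0.33, limma adjusted p = 0.0137), with a list median of -0.26. That is 2 of 9 where 24.2% of all miRNAs fell, a share near the background. In allografts against isografts 3 fell, let-7b-5p, let-7c-5p and let-7e-5p, with a list median of -0.48, where 21% of all miRNAs fell. Without allograft 34 let-7b-5p (limma adjusted p = 0.0504) and let-7e-5p (0.0608) no longer passed there, nor did let-7e-5p without isograft 34 (0.0617) or allograft 12 (0.0530). Against normal corneas the calls of let-7c-5p and let-7b-5p were lost with scaling to the summed list (limma adjusted p = 0.0824 and 0.178) and without normal 34, normal 56, allograft 12 or allograft 34 (0.0506 to 0.0667 and 0.0918 to 0.117). miR-10a-5p and miR-10b-5p, Hox cluster miRNAs whose sequence resembles that of miR-99 and miR-100, rose in both graft groups against normal corneas, by 3.85 (SE 0.40) and 3.55 (SE 0.37) in isografts and by 3.45 (SE 0.40) and 3.04 (SE 0.37) in allografts (limma adjusted p = 8.8e-08 or below).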

How the data were processed

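Libraries were made from 1 ug of Trizol-extracted RNA with the TruSeq small RNA kit, per the labels' protocols. The authors deposited RPM values for 765 miRNAs in 9 columns, each matched to 1 library by its title, with 0 unmatched. bcl2fastq, BWA and the build rn6 are named in the submitters' processing notes, without versions or roles; how reads were trimmed and annotated is not given in the sources used here. Sequences come from RefSeq on GRCr8, and mature sequences matched 4 of the 5 members.

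The members and lists were chosen with earlier results of these data known. miRNAs with at least 5 RPM in 3 libraries were kept, 281. limma 3.58.1 (R 4.3.3, trend, 9 libraries, 6 residual degrees of freedom, threshold 0.05) was run on log2(RPM + 1), which understates changes of low miRNAs, and tested on simulated data. Ratios within a library were compared by exact permutation, 10 planned and 6 added after seeing the data, each set adjusted by itself. Whole reads were recovered from the RPM steps, with 100% of values whole within 0.1 read, and given to edgeR 4.0.16 and DESeq2 1.42.0 as alternatives; edgeR called 114 miRNAs for isograft against normal, 193 for allograft against normal and 163 between the grafts, and DESeq2 119, 195 and 171. A count of 3 reads is 0.247 to 0.273 RPM. Amplified reads lack molecular identifiers, so floors cover counting error only. No 2 libraries of a group were alike within counting noise (chi-square divided by its degrees of freedom, 70.5 to 810). The highest values, 810 and 807, were those of isograft 12 with isograft 34 and isograft 56. Named miRNAs were the members, the other arms of their hairpins, their let-7 partners, 2 related lists and the 3 closest miRNAs in pattern to each member.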

Additional observations from a re-analysis of the deposited data

How the results depend on the processing

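All 23 alternatives of the model, and 14 of each ratio, were run as planned except the 6 added ratios and the ratios without a pseudocount, which were chosen after seeing the data. Each alternative kept the falls of miR-99a-5p, miR-125a-5p and miR-125b-5p in allografts against normal corneas and the call for the log2 ratio of miR-99b-5p to miR-125a-5p (exact permutation p = 0.00357 to 0.0286).

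Counts of changed miRNAs and of changed members are given in the order isograft against normal, then allograft against normal, then allograft against isograft. With a 50 RPM filter 30, 63 and 44 miRNAs changed in place of 60, 133 and 97. Median-of-ratios scaling gave 114 and 169 in the first and last, edgeR 114 and 163, DESeq2 119 and 171, and scaling to the listed sum 120 in the first. That last scaling moved the split to 106 higher and 14 lower in the first and 141 and 44 in the second and 85 and 55 in the last; RPM without miR-184 gave 38 and 24, 51 and 105, and 33 and 74. Leaving out 1 library gave 42 to 80, 101 to 164 and 52 to 147 miRNAs (52 without allograft 34, 147 without isograft 12). Members changed in the first comparison were 3 with median of ratios, edgeR or DESeq2, 0 without miR-184, 2 with the listed sum, with only the groups compared and without isograft 12 and allograft 34, and 0 to 2 leaving out 1 library. In the second they were 5 with the listed sum and 3 to 3 leaving out 1. In the last they were 3 with no filter or a 50 RPM filter, 2 with only the groups compared and 1 to 5 leaving out 1.

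Directions turned for these values, none of them past the threshold in the fit reported, and the cause was not tested. Against normal corneas in isografts, RPM without miR-184 gave -0.17 for miR-125b-2-3p, -0.12 for let-7a-5p and -0.14 for let-7c-1-3p, and the listed sum gave 0.23 for miR-125a-5p and 0.030 for miR-125b-5p. Against normal corneas in allografts they gave -0.37 for miR-99b-5p and -0.41 for miR-99b-3p, and 0.43 for miR-100-5p and 0.24 for let-7a-5p. Without isograft 12 and allograft 34, miR-125a-5p stood at 0.19 and miR-125b-5p at 0.10 in isografts. Leaving out 1 library, values in isografts ran from -0.39 to 0.19 for miR-125a-5p, -0.57 to 0.10 for miR-125b-5p, -0.017 to 0.28 for let-7a-5p and -0.045 to 0.30 for let-7c-1-3p. In allografts they ran from -0.10 to 0.28 for miR-99b-5p and -0.15 to 0.17 for miR-99b-3p. The log2 ratio of miR-99a-5p to miR-125b-5p, allografts minus normal corneas, ran from -0.16 to 0.075 and that of miR-99b-5p to miR-99b-3p from -0.0059 to 0.10. Between the grafts the listed sum gave 0.014 for miR-10a-5p.

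A check by title number showed no common pairing of the libraries. Deviations from group means correlated over 0.1 in 2 of 9 same-numbered pairs (-0.514 to 0.557), and 2 of 9 libraries matched their own number best. With 3 libraries per group this check cannot exclude pairing, and the labels do not explain the numbers. With the replicate block 66, 143 and 112 miRNAs and 1, 3 and 5 members changed. miR-125a-3p, miR-99a-3p, miR-100-3p and let-7a-2-3p are limited by depth. Listed miRNAs took as little as 26.4% of reads, which limits RPM as a measure of level.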

Other observations

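Strands of the same clusters that were too low to test are given as values. miR-99a-3p, the other arm of the most abundant member, averaged 2.97 RPM ± 0.19 for the normal libraries, 2.77 ± 1.32 for isografts and 1.48 ± 1.24 for allografts (SD, n = 3 each), with 7 to 43 reads per library. miR-100-3p had 0 to 8 reads per library. let-7a-2-3p, the only strand here that separates the chromosome 8 let-7a hairpin from the one on chromosome 17, was at 0.24 RPM ± 0.19, 0.09 ± 0.09 and 0.03 ± 0.05, around the 0.247 to 0.273 RPM that 3 reads are worth, so no comparison was drawn. let-7a-1-3p and let-7c-2-3p, whose mature sequences differ by 0 bases, carried the same value in 9 of 9 libraries.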
